A study of Sus scrofa with 16 samples.

Results

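The genes described here encode collagens, laminins and other structural proteins of the extracellular matrix, measured in the whole pituitary of the pig. They were taken by name: every gene of the deposited comparison whose symbol is that of a collagen chain, a laminin chain, a fibrillin, a fibulin or a nidogen, and in addition FN1, ELN, SPARC, DCN, LUM, BGN, HSPG2, AGRN and POSTN. The names matched 43 of the 25880 genes in the count table. All 43 had at least 10 counts in each of the 16 pigs, the smallest count being 11, and all 43 passed the expression filter of the test. The rule used this count minimum and the names, and no difference between the groups, but it was chosen with earlier results of these data known.

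The extracellular matrix of the pituitary has a sheet-like and a fibrous form. Basement membranes, built on networks of collagen IV and laminin that nidogens, perlecan and agrin tie together, surround the capillaries and the cords of hormone cells. Fibrillar collagens with their associated collagens and small proteoglycans make up the stroma between them, which cells such as fibroblasts and the pericytes of vessel walls lay down. Collagens and laminins are trimers, and many of them combine chains from separate genes.

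The pigs were Zlotnicka white gilts, slaughtered at 100 ± 2 kg and labelled day 180, with no treatment named. The 8 LFC pigs carried the label of low and the 8 HFC pigs that of high feed conversion, the feed used per unit of body weight gained. These values, low_FCR and high_FCR, stand under a label tag named shear force and were read as feed conversion. The day label is the same for all pigs, but the authors' paper reports that HFC gilts reached the slaughter weight later. It also reports slower gain and more fat at several points of the carcass in HFC gilts. Age, growth and fatness therefore cannot be told apart from feed conversion here. Each pituitary was taken whole and the libraries did not keep the strand. The pig numbers in the sample titles were all lower in the LFC group than in the HFC group, and whether they mark an order of collection or processing is not stated, so any such order and the group cannot be told apart.

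Libraries held 6010629 to 11794256 counts on genes. The 43 matrix genes took 0.116 to 0.240% of all counts among LFC pigs and 0.141 to 0.345% among HFC pigs. Expression is given as CPM, counts relative to the TMM-scaled size of the library, and positive log2 fold changes are higher in HFC pigs. CPM does not take account of the length of a transcript, so levels are compared between pigs and not between genes. The tissue label was checked on hormone genes: the summed CPM of PRL, GH1, CGA, TSHB and FSHB was at least 80887 in every pig.

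Whether feed conversion goes with a difference in matrix expression was asked by comparing HFC with LFC pigs. Of the 43 genes, 36 had a log2 fold change above 0 and 7 below, against 47.9% above 0 among the 13621 genes tested. Their median log2 fold change was 0.28, against -0.01 over all genes, and values of single genes, given below with their standard error (SE, n = 8 pigs per group), ran from -0.19 for FBLN5 to 1.14 for COL12A1. None passed the adjusted p of 0.05 with a fold change of at least 1.3 in the quasi-likelihood test of edgeR with Benjamini-Hochberg adjustment, as was the case for all genes (0% called), and the smallest adjusted p, that of COL1A2, was 0.372. With a raw, unadjusted p up to 0.05, 7 matrix genes (16.3%) were higher in HFC pigs, where 7.03% of all genes were, and 0 were higher in LFC pigs, where 4.41% were. These 7 were COL1A2, COL7A1, COL12A1 and COL14A1 among the collagens, LAMA5 and LAMB1 among the laminins, and HSPG2. No matrix gene separated the groups without overlap, which 0.00734% of all genes did. In 9 matrix genes at least 7 of the 8 HFC pigs lay above the LFC median, a pattern that 15.3% of all genes had. The median and counts changed with 1 pig and with covariates, as given below. DESeq2 called 1 matrix gene, COL1A2, and 0.216% of all genes with an adjusted p. The authors' paper, which used DESeq2 with the same limits, lists more of these genes as differentially expressed in this breed. Its integrin set names COL1A1, COL1A2, COL4A2, COL5A1, COL6A3, COL12A1, COL16A1, LAMA5, LAMB1, LAMB2 and LAMC1. The reason for this difference from the fits here was not tested. In whole tissue, fewer cells of a type and less RNA per cell cannot be told apart.

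**Figure D1:**
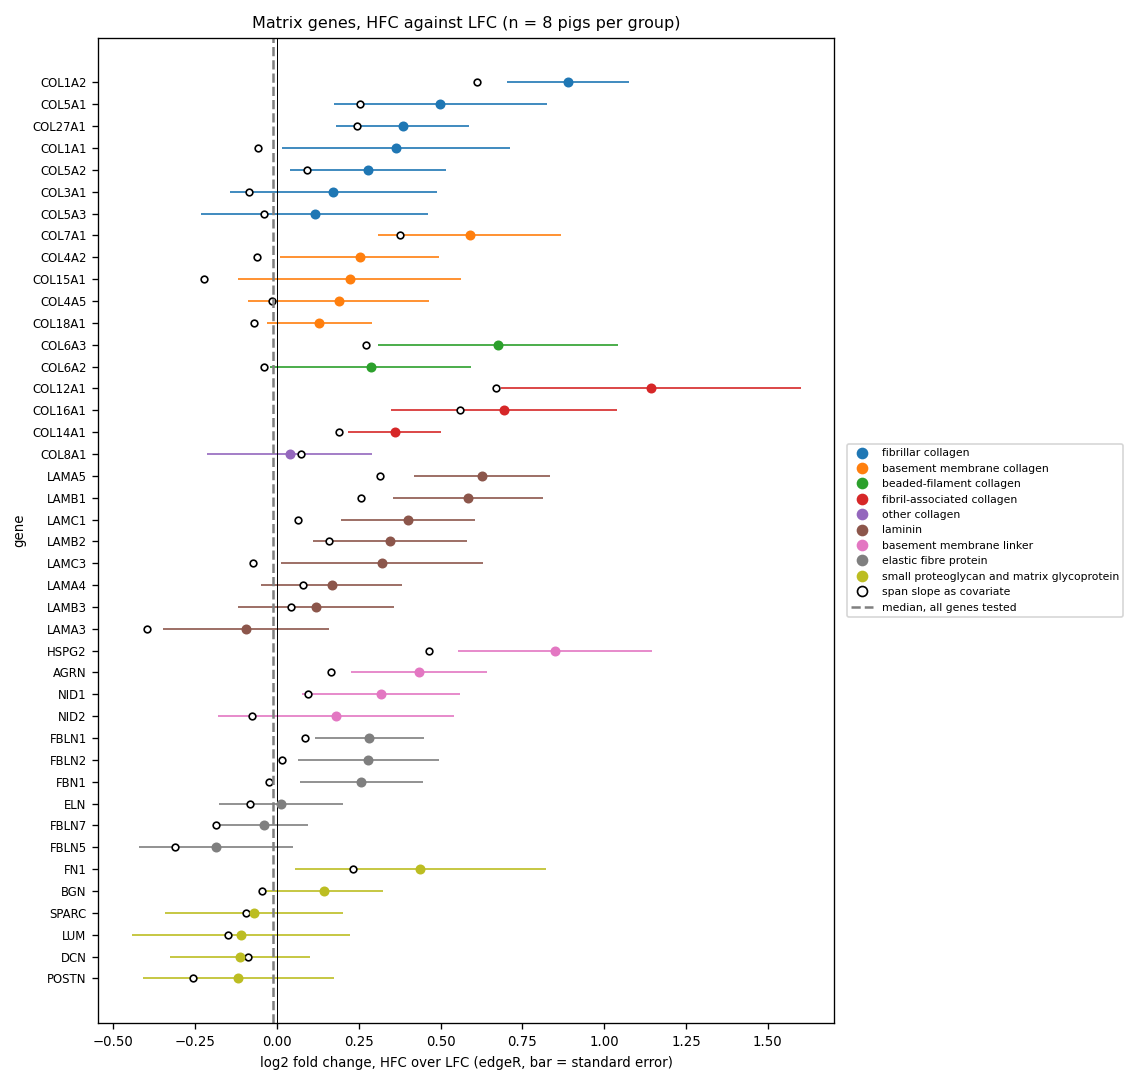
Log2 fold changes of the matrix genes (x axis, HFC over LFC) by gene (y axis), 1 of the 43 not drawn, coloured by class, with bars for the standard error from edgeR and n = 8 pigs per group. Open circles give the same value with the span slope, a measure of how the CPM of a library runs with the genomic length of genes, as covariate, and the dashed line is the median of all genes tested. Over all 43 genes, the values shown as filled points lie above 0 for 36 and those shown as open ones for 22.

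1 HFC pig and a property of the libraries moved with this shift. Without HFC replicate 1 the median log2 fold change was 0.08, 27 of 43 genes stayed above 0, and 4 were higher in HFC pigs at a raw p up to 0.05, as were 4.87% of all genes. The span slope, the regression slope of log2 CPM on log2 genomic span over 10890 genes in each pig, lay between -0.103 and 0.0146 in LFC pigs and between -0.0848 and 0.0435 in HFC pigs. With the slope as a covariate, the median was 0.02 and 22 of 43 genes were above 0, with 2 matrix genes, COL1A2 and LAMA5, higher in HFC pigs at a raw p up to 0.05, as were 2.73% of all genes. With 1 surrogate variable the median was -0.060, with 21 of 43 genes above 0 and 1 higher in HFC pigs at a raw p up to 0.05, as were 2.58% of all genes. Across pigs, the matrix genes had a median correlation of 0.47 with the slope after centring on the group means, against 0.01 for all genes, given as a description over 16 pigs. The 43 genes were long, with a median genomic span of 72025 bases, against 29627 over all tested genes with a span. Within the 43 genes, the log2 fold change had a rank correlation of 0.12 with a gene's own span. The slope was calculated from the same CPM values, matrix genes included, and is no direct measure of library quality. The part of library quality in the shift was not tested.

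Among the fibrillar collagens, which form the rope-like fibres of connective tissue, all 7 members had a log2 fold change above 0, with a median of 0.36 (0.23 without HFC replicate 1, 0.09 with the span slope as covariate), and 1 reached a raw p of 0.05 or less. This was COL1A2, the alpha-2 chain of type I collagen (ENSSSCG00000015326, chromosome 9, 74174220 to 74210398 on Sscrofa11.1). COL1A2 was measured at 57.4 to 140.1 CPM in LFC pigs (median 109), against 119 to 252 CPM in HFC pigs (median 201). All 8 HFC pigs lay above the LFC median and 7 of 8 above the highest LFC pig, while HFC replicate 5 lay among the higher LFC pigs. The difference was a log2 fold change of 0.89 ± 0.19 (SE; adjusted p = 0.372, quasi-likelihood test of edgeR, Benjamini-Hochberg). The adjusted p of COL1A2 was 0.00876 in DESeq2, and over 27 alternatives it ran from that value to 0.646 without HFC replicate 4. Leaving out each pig in turn, the log2 fold change stayed between 0.82 and 0.99. With the span slope as covariate it was 0.61, and with 1 surrogate variable 0.57.

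COL1A1, the alpha-1 chain and the partner of COL1A2 in the usual type I trimer, had a smaller difference and a larger error. The CPM of COL1A1 ranged from 29.5 through a median of 56.1 to 111 in LFC pigs, and from 23.9 through 64.6 to 186 in HFC pigs. The groups overlapped over nearly their whole range, with HFC replicate 1 the highest pig and HFC replicate 3 the lowest. The log2 fold change was 0.36 ± 0.35 (SE), and it was 0.05 without HFC replicate 1. COL3A1, the single chain of type III collagen that often shares fibres with type I, gave a like picture: LFC pigs had 84.3 to 169 CPM of COL3A1 with a median of 115, and HFC pigs had 34.2 to 331 CPM with a median of 118. HFC replicates 1 and 3 were again the extremes of all 16 pigs. Its log2 fold change was 0.17 ± 0.32 (SE), and without HFC replicate 1 it was -0.15.

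The log2 ratio of COL1A2 to COL1A1 in the same pig, examined after the values were seen and given with no test, was 0.88 ± 0.45 (SD, n = 8) among LFC pigs and 1.50 ± 0.82 (SD, n = 8) among HFC pigs. It reached 3.13 in HFC replicate 3 and was 0.44 in HFC replicate 1. Against COL3A1 the log2 ratio was -0.26 ± 0.38 (SD, n = 8) among LFC pigs and 0.69 ± 0.99 (SD, n = 8) among HFC pigs, with 2.62 in HFC replicate 3 and -0.39 in HFC replicate 1. In both ratios 7 of the 8 HFC pigs lay above the LFC median and HFC replicate 1 below it. HFC replicate 3 thus had 209.5 CPM of COL1A2, a value well inside the HFC group, beside the lowest COL1A1 and COL3A1 of all pigs, 23.9 and 34.2 CPM. After centring on the group means, the r with the span slope was 0.90 for COL1A2, 0.61 for COL1A1 and 0.29 for COL3A1. The part of the slope in the ratios was not tested.

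Of the remaining fibrillar chains, COL5A1 and COL5A2, which join type V collagen and help to set the width of type I fibres, had log2 fold changes of 0.50 ± 0.33 and 0.28 ± 0.24. COL27A1, a fibrillar chain of cartilage and other tissues, had 0.38 ± 0.20. All 8 HFC pigs lay above its LFC median, at 41.7 to 60.3 CPM against 20.2 to 63.7 CPM, and none above the highest LFC pig. COL5A3 had 0.12 ± 0.35, and -0.05 without HFC replicate 1. None of these 4 reached a raw p of 0.05 or less.

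**Figure D2:**
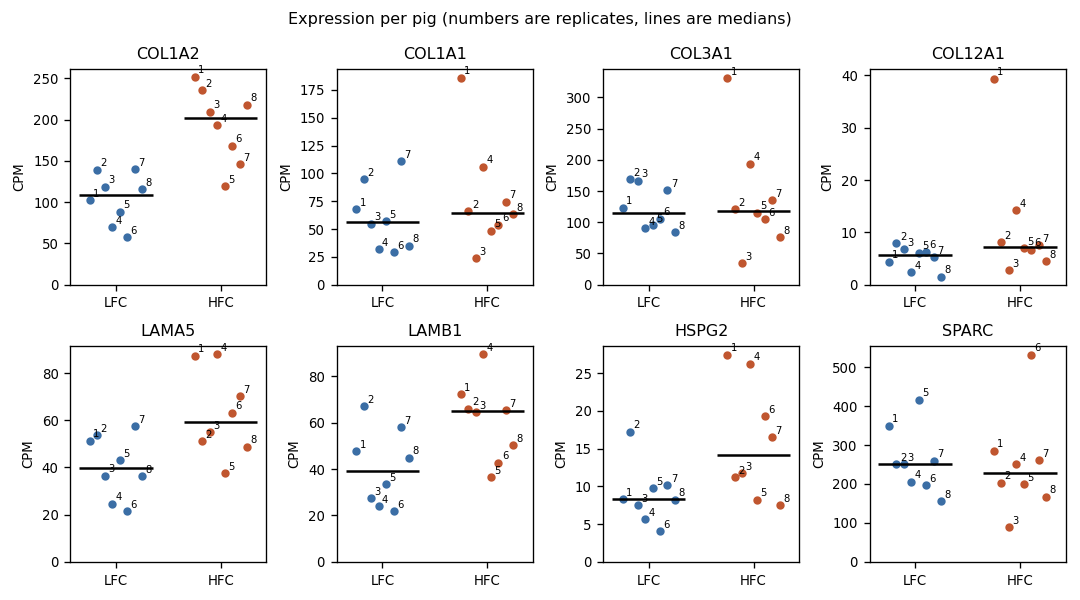
CPM (y axis) of 8 matrix genes in each LFC and HFC pig (x axis); numbers are replicates and lines are group medians. COL1A2 lies above the highest LFC pig in 7 of 8 HFC pigs, while COL1A1, COL3A1 and SPARC overlap and HFC replicate 3 is the lowest of all pigs in these 3.

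The fibril-associated collagens, which lie on the surface of fibres and link them to other matrix parts, had the highest class median, 0.69, over 3 members. The CPM of COL12A1 ranged from 1.57 through a median of 5.72 to 7.92 in LFC pigs, and from 2.72 through 7.26 to 39.4 in HFC pigs. HFC replicate 1 stood far above the other pigs at 39.4 CPM, HFC replicate 4 followed at 14.3 CPM, and the other 6 HFC pigs lay within or close to the LFC range. COL12A1 (ENSSSCG00000004484, chromosome 1, 90744289 to 90872963) had a log2 fold change of 1.14 ± 0.46 (SE; adjusted p = 0.413, quasi-likelihood test of edgeR, Benjamini-Hochberg). Without HFC replicate 1 its log2 fold change was 0.51.

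COL14A1 was measured at 23.6 to 43.3 CPM in LFC pigs (median 32.9), against 27.6 to 57.3 CPM in HFC pigs (median 41.4). HFC pigs tended to the upper part of a shared range, with 7 of 8 above the LFC median and 3 above the highest LFC pig. COL14A1 had a log2 fold change of 0.36 ± 0.14 (SE; adjusted p = 0.413, quasi-likelihood test of edgeR, Benjamini-Hochberg). Its deposited span of 489925 bases also covers the reference genes DEPTOR and DSCC1, and without strand their reads may have been counted for COL14A1, so its value is uncertain. COL16A1 had 4.48 to 19.3 CPM in LFC pigs and 5.24 to 35.2 CPM in HFC pigs, a log2 fold change of 0.69 ± 0.35 (SE, adjusted p = 0.440, edgeR).

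The beaded filaments of type VI collagen, which anchor cells and vessels in the stroma, are made of chains from COL6A1, COL6A2 and COL6A3. LFC pigs had 1.88 to 4.97 CPM of COL6A3 with a median of 2.99, and HFC pigs had 1.52 to 13.4 CPM with a median of 3.71. The CPM of COL6A2 ranged from 9.07 through a median of 14.6 to 22.1 in LFC pigs, and from 6.53 through 15.2 to 44.7 in HFC pigs. In both genes HFC replicate 1 was the highest and HFC replicate 3 the lowest of the 16 pigs. The log2 fold changes were 0.68 ± 0.37 for COL6A3 and 0.29 ± 0.31 for COL6A2, and without HFC replicate 1 they were 0.28 and -0.04. COL6A1, which had no symbol in the deposited comparison and so was no member, had 0.33 ± 0.31. COL8A1, a short-chain collagen of vessel walls, had 0.04 ± 0.25, and -0.10 without HFC replicate 1.

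The 5 collagens of the basement membrane zone had log2 fold changes of 0.13 to 0.59 with a median of 0.22, which was 0.05 without HFC replicate 1 and -0.06 with the span slope as covariate. COL7A1 was measured at 2.74 to 11.9 CPM in LFC pigs (median 5.89), against 5.33 to 15.8 CPM in HFC pigs (median 8.72). 7 of 8 HFC pigs lay above the LFC median, but only HFC replicate 4 above the highest LFC pig. COL7A1, the chain of anchoring fibrils beneath epithelia, had a log2 fold change of 0.59 ± 0.28 (SE; adjusted p = 0.433, quasi-likelihood test of edgeR, Benjamini-Hochberg), and the raw p stayed at or below 0.05 in 5 of 16 fits without 1 pig. COL4A2, a chain of the widespread collagen IV network, had 38.9 to 196 CPM in LFC pigs and 81.9 to 192 CPM in HFC pigs, with the lowest value in LFC replicate 6 and a log2 fold change of 0.25 ± 0.24. Its partner chain COL4A1 was not analysed here. COL4A5, of the collagen IV networks best known from the kidney, ran from 15.8 CPM in HFC replicate 3 to 107 CPM in HFC replicate 1, and the LFC pigs lay between, at 42.6 to 66.1 CPM. Its log2 fold change was 0.19 ± 0.28, and near 0 without HFC replicate 1. COL15A1 and COL18A1, multiplexins of vessel and epithelial basement membranes, had log2 fold changes of 0.22 ± 0.34 and 0.13 ± 0.16, which were -0.17 and 0.05 without HFC replicate 1.

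Laminins are cross-shaped trimers of 1 alpha, 1 beta and 1 gamma chain that start the assembly of basement membranes. Of 9 laminin chains, 8 had a log2 fold change above 0 and the median was 0.32, which was 0.08 without HFC replicate 1 and 0.07 with the span slope as covariate. LAMA5, the alpha chain of mature epithelial and vascular laminins (ENSSSCG00000032761, chromosome 17, 61698620 to 61747756), differed most among them. LFC pigs had 21.4 to 57.4 CPM of LAMA5 with a median of 39.9, and HFC pigs had 37.6 to 88.1 CPM with a median of 59.1. The groups overlapped, with 4 of 8 HFC pigs above the highest LFC pig and HFC replicate 5 the lowest HFC pig. It had a log2 fold change of 0.63 ± 0.21 (SE; adjusted p = 0.413, quasi-likelihood test of edgeR, Benjamini-Hochberg). The raw p was at or below 0.05 in all 16 fits without 1 pig, and the log2 fold change was 0.32 with the span slope as covariate.

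LAMB1, a beta chain of many basement membranes (ENSSSCG00000015444, chromosome 9, 107671320 to 107746867), had a like pattern. LAMB1 was measured at 21.9 to 67.2 CPM in LFC pigs (median 39.2), against 36.6 to 89.6 CPM in HFC pigs (median 64.9). The HFC pigs fell into a higher set of 5 and 3 within the middle of the LFC range, and LFC replicate 2 lay within that higher set. LAMB1 had a log2 fold change of 0.58 ± 0.23 (SE; adjusted p = 0.413, quasi-likelihood test of edgeR, Benjamini-Hochberg). With the span slope as covariate it was 0.26. LAMC1, the gamma chain that pairs with LAMB1, had 23.3 to 62.3 CPM in LFC pigs and 28.4 to 78.9 CPM in HFC pigs, a log2 fold change of 0.40 ± 0.20 (SE, adjusted p = 0.444, edgeR). LAMB2, the beta chain of vascular and synaptic laminins, had 0.35 ± 0.23.

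LAMC3 and LAMA4, chains found in vessel walls among other places, had log2 fold changes of 0.32 ± 0.31 and 0.17 ± 0.22, which were -0.03 and -0.02 without HFC replicate 1. LAMA3 and LAMB3, chains of epithelial laminins, had log2 fold changes of -0.10 ± 0.25 and 0.12 ± 0.24, and neither reached a raw p of 0.05 or less.

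The 4 linkers of the basement membrane all had log2 fold changes above 0, with a median of 0.38 (0.27 without HFC replicate 1, 0.13 with the span slope as covariate). HSPG2 encodes perlecan, a large heparan sulphate proteoglycan (ENSSSCG00000003514, chromosome 6, 79850757 to 79921097). The CPM of HSPG2 ranged from 4.11 through a median of 8.28 to 17.3 in LFC pigs, and from 7.49 through 14.1 to 27.4 in HFC pigs. HFC replicates 1, 4 and 6 lay above every LFC pig, and LFC replicate 2 was the only LFC pig above the HFC median. The value was a log2 fold change of 0.85 ± 0.30 (SE; adjusted p = 0.413, quasi-likelihood test of edgeR, Benjamini-Hochberg), and all 16 fits without 1 pig kept the raw p at or below 0.05, with log2 fold changes of 0.70 to 1.06. With the span slope as covariate the value was 0.46 and with 1 surrogate variable 0.37, both with a raw p above 0.05. AGRN, which encodes agrin and is best known for clustering receptors at the neuromuscular junction, had 17.6 to 62.3 CPM in LFC pigs and 33.1 to 77.4 CPM in HFC pigs, with 7 of 8 HFC pigs above the LFC median. Its log2 fold change was 0.43 ± 0.21 (SE, adjusted p = 0.433, edgeR). NID1 and NID2, the nidogens that bridge laminin and collagen IV, had 0.32 ± 0.24 and 0.18 ± 0.36, which were 0.16 and -0.03 without HFC replicate 1.

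In the elastic fibre class, 4 of 6 members had a log2 fold change above 0, the median was 0.14 (-0.05 with the span slope as covariate) and none reached a raw p of 0.05 or less. FBN1, the main microfibril protein, had 0.26 ± 0.19, and ELN, elastin itself, had 0.01 ± 0.19. The fibulins, proteins that join elastic fibres and basement membranes, had 0.28 ± 0.17 for FBLN1, 0.28 ± 0.22 for FBLN2, -0.04 ± 0.14 for FBLN7 and -0.19 ± 0.24 for FBLN5, the lowest value of all members.

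The small proteoglycans and matrix glycoproteins stood at a median of -0.09, and 4 of the 6 had log2 fold changes below 0. LFC pigs had 155 to 416 CPM of SPARC with a median of 251, and HFC pigs had 88.4 to 532 CPM with a median of 227. SPARC, a collagen-binding protein of tissues that remodel their matrix, was lowest in HFC replicate 3 and highest in HFC replicate 6, so that the HFC pigs spanned more than the whole LFC range. DCN was measured at 39.6 to 70.0 CPM in LFC pigs (median 49.9), against 25.6 to 84.7 CPM in HFC pigs (median 41.3). The CPM of LUM ranged from 3.04 through a median of 6.39 to 14.5 in LFC pigs, and from 2.61 through 5.85 to 11.7 in HFC pigs. For both of these fibre-binding proteoglycans, decorin and lumican, the HFC range again took in nearly all of the LFC range. The log2 fold changes were -0.07, -0.11 and -0.11 with standard errors of 0.27, 0.21 and 0.33. For SPARC and LUM the sign turned in some fits without 1 pig, up to 0.06 and 0.13. POSTN, periostin, had -0.12 ± 0.29, and its highest pig was LFC replicate 8 with 130.0 CPM, without which the value was 0.27. BGN, biglycan, had 0.14 ± 0.18, with a span that overlaps HAUS7 and LOC100623862. The span of SPARC lies wholly within that of a long non-coding RNA gene, LOC110257252. FN1, fibronectin, ran from 5.22 to 58.0 CPM within HFC pigs and had 0.44 ± 0.38, which was 0.17 without HFC replicate 1.

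The matrix genes varied more between pigs of a group than most genes did, and they varied together. The median SD of log2(CPM + 1) within groups was 0.53 for the 43 genes and 0.28 for all genes tested. Over the 903 pairs of matrix genes the median correlation, after centring on the group means, was 0.52, against a value near 0 over all pairs of genes tested, a description over 16 pigs. The parts of library effects and of cell composition in these correlations were not tested. NID2, NID1, COL5A1 and COL1A1 had the highest median correlation with the other matrix genes, 0.68 to 0.70. POSTN had the lowest, 0.08, and LAMB3, COL27A1, LAMA3 and DCN followed at 0.21 to 0.27.

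4 pigs set the range. HFC replicate 1 lay above the mean over pigs in 42 of 43 genes and was the highest pig in 23. HFC replicate 4 lay above the mean in 40 genes and was the highest in 8, among them LAMA5, LAMB1, AGRN, FBN1 and ELN. LFC replicate 6 was the lowest pig in 15 genes and HFC replicate 3 in 17. As each gene has a single lowest pig, the genes listed here for the low pigs cannot overlap. LFC replicate 6 was lowest for COL1A2, COL4A2, LAMA5, LAMB1, HSPG2, AGRN, FBN1, FBLN1 and ELN among others, and HFC replicate 3 was lowest for COL1A1, COL3A1, COL5A1, COL6A2, COL6A3, COL4A5, COL15A1, LAMA4, LAMB2, NID2, FN1, SPARC, DCN and LUM among others. LFC replicate 6 also had the lowest span slope of all pigs, -0.103, while that of HFC replicate 3 was 0.0146.

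**Figure D3:**
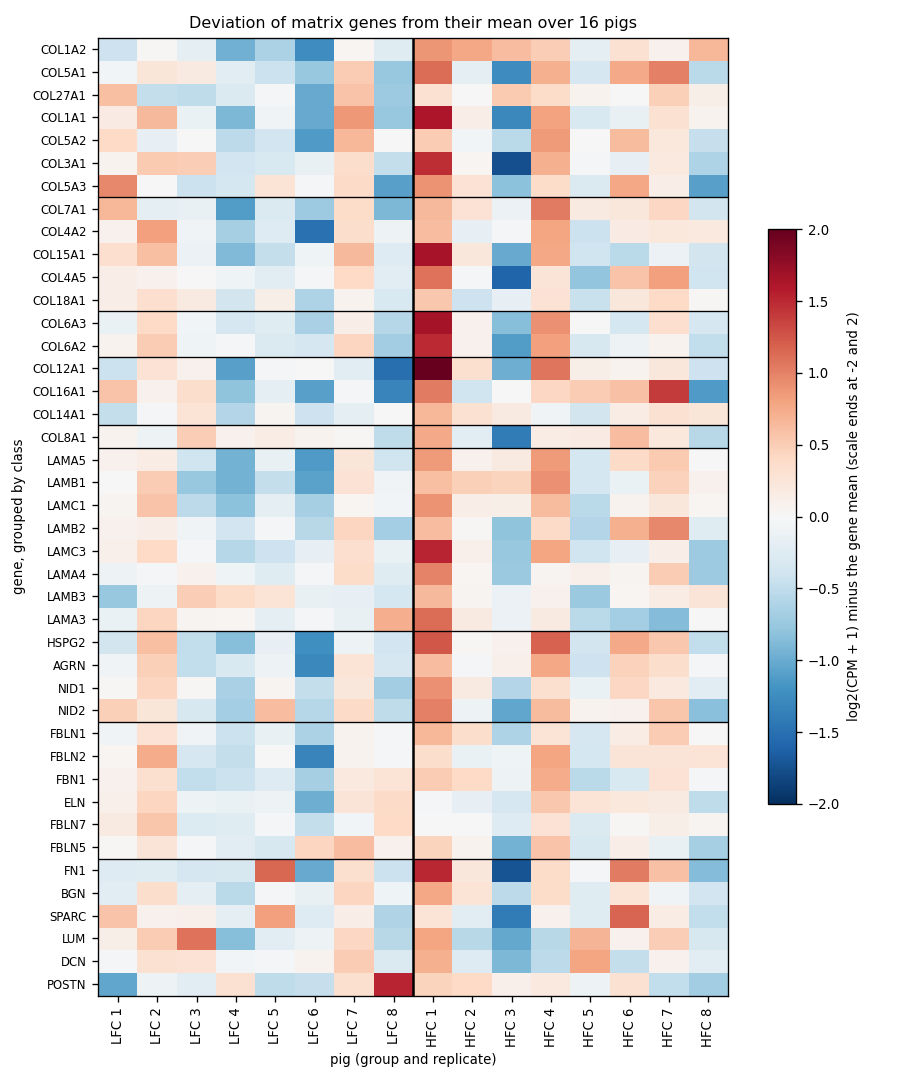
Log2(CPM + 1) of the matrix genes (y axis, grouped by class, 1 of the 43 not drawn) in 16 pigs (x axis), each as the difference from the gene's mean over the pigs; red is above and blue below, and the colour scale ends at -2 and 2. HFC replicate 1 is red in nearly all genes (42 of all 43 above the mean), and HFC replicate 3 is blue for COL1A1, COL3A1, COL4A5, FN1 and SPARC but not for COL1A2, LAMB1 or LAMA5.

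Sums of cell type markers were extreme in some of these pigs. Summed CPM of 10 pericyte and smooth muscle markers was 114 to 164 in LFC pigs and 77.1 to 266 in HFC pigs, and that of 13 endothelial markers was 355 to 517 and 289 to 701, with HFC replicate 3 the lowest and HFC replicate 1 the highest of all pigs in both. The sum of 7 fibroblast markers was 354 to 775 CPM in LFC pigs and 217 to 982 CPM in HFC pigs, again lowest in HFC replicate 3 but highest in HFC replicate 6. LFC replicate 6 was not the lowest LFC pig in any of these 3 sums. The contribution of cell composition was not tested. Of the fibroblast list 3 further genes, DPT, DPEP1 and MEOX1, were too low to test, and VIM made up most of its sum.

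Whether chains of 1 trimer or network followed each other across pigs was asked for 12 pairs taken from textbook composition. In 10 of the 12, Pearson's r of log2(CPM + 1) over the 16 pigs had a permutation p of at most 0.05 after adjustment over the 12. The lowest r of these 10 was 0.57, that of LAMB2 and LAMC1, and 41.1% of all 903 pairs of matrix genes had an r at or above it, with a median of 0.50 over all pairs. COL4A5 and COL4A6 were closest, with r = 0.95 (permutation p = 1e-05, the smallest possible, adjusted p = 3e-05) and rho = 0.91 (permutation p = 1e-05, adjusted p = 6e-05). Without the 2 pigs farthest from the median r was 0.92, and within groups it was 0.83 in the LFC and 0.97 in HFC pigs. COL4A6 was no member for lack of a deposited symbol, and it lies on chromosome X (88634928 to 88658941), as does COL4A5 (88958616 to 89183372). Among 13620 other genes each ranked 2 in correlation with the other.

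COL6A1 and COL6A2 had r = 0.92 (permutation p = 1e-05, adjusted p = 3e-05) and rho = 0.86 (permutation p = 7e-05, adjusted p = 0.00028). The r was 0.85 without the 2 farthest pigs, 0.79 in LFC and 0.96 in HFC pigs, and each again ranked 2 for the other. LAMB1 and LAMC1 had r = 0.91 (permutation p = 1e-05, adjusted p = 3e-05) and rho = 0.94 (permutation p = 1e-05, adjusted p = 6e-05), with 0.87 without the 2 farthest pigs, 0.96 in LFC pigs and 0.83 in HFC pigs. Among 13620 other genes LAMC1 ranked 76 for LAMB1 and LAMB1 ranked 37 for LAMC1, and after centring LAMB1 and LAMC1 had r of 0.89 and 0.91 with the span slope, whose part in their correlation was not tested. Both pairs join chains of 1 trimer, and within single groups their exact permutation p-values were 0.000149 to 0.0194, not adjusted.

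The r of COL1A1 was higher with COL3A1, a chain of another trimer, than with its own partner. With COL3A1, r was 0.84 (permutation p = 4e-05, adjusted p = 9.6e-05) and rho 0.79 (permutation p = 0.00046, adjusted p = 0.00138), with 0.69 without the 2 farthest pigs, 0.76 in LFC pigs and 0.95 in HFC pigs. With COL1A2, r was 0.50 (permutation p = 0.0490, adjusted p = 0.0534) and rho 0.46 (permutation p = 0.0784, adjusted p = 0.0855), with 0.65 without the 2 farthest pigs, 0.80 in LFC pigs and 0.32 in HFC pigs. The difference between the 2 correlations, and between the groups, was not tested. With total library scaling or centring on the group means, the correlation of COL1A1 and COL1A2 had an adjusted permutation p of 0.0210 or 0.0331. After centring, the members with high correlation to COL1A2 included COL4A2, LAMB1 and LAMC1 (r of 0.72 to 0.78), and those closest to COL1A1 were NID1, COL6A3, COL6A2 and COL15A1 (r of 0.89 to 0.90), as a description over 16 pigs.

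LAMA4 and LAMC1, partners in an endothelial laminin, were the other pair without an adjusted p of at most 0.05, with r = 0.33 (permutation p = 0.209, adjusted p = 0.209) and rho = 0.24 (permutation p = 0.358, adjusted p = 0.358), and r = 0.09 without the 2 farthest pigs. The remaining pairs, COL5A1 with COL5A2, COL4A3 with COL4A4, COL6A1 with COL6A3, LAMA5 with LAMB2, LAMB2 with LAMC1, and LAMC1 with NID1, had r of 0.57 to 0.87 and rho of 0.62 to 0.78, with adjusted permutation p-values of at most 0.0251, and r of 0.49 to 0.77 without the 2 farthest pigs. Within LFC and HFC pigs, their exact permutation p-values, not adjusted, were 0.161 and 0.153 for LAMB2 with LAMC1, and 0.0667 and 0.0686 for LAMC1 with NID1. The exact p was also above 0.05 for COL5A1 with COL5A2 in LFC pigs (0.0688) and for COL4A3 with COL4A4 in HFC pigs (0.0724). For COL6A1 with COL6A3 and LAMA5 with LAMB2 it was at most 0.05 in both groups. The ranks of partners were 1533 and 429 for LAMA5 with LAMB2 and 1176 and 2555 for LAMB2 with LAMC1. DCN and LUM are neighbours on chromosome 5 (91678608 to 91713925 and 91748494 to 91760563) and had r of 0.81 after centring. COL3A1 and COL5A2, neighbours on chromosome 15 (93556914 to 93596360 and 93611549 to 93843645), had r of 0.60.

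**Figure D4:**
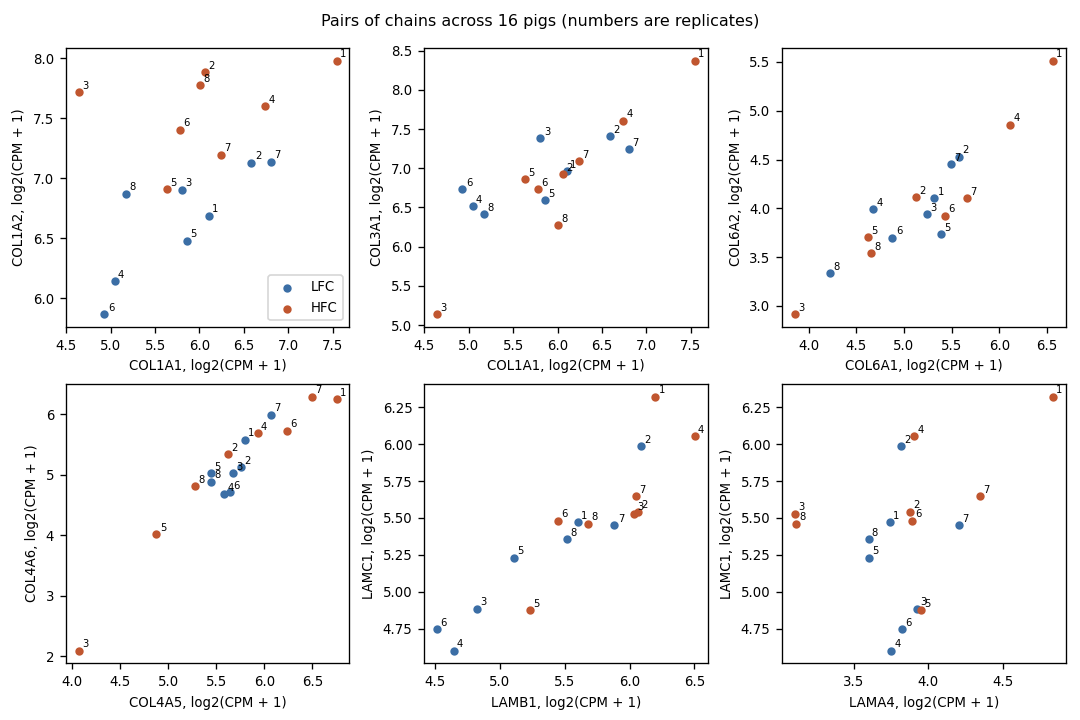
Log2(CPM + 1) of 6 pairs of chains (x and y axes) in 16 pigs, LFC in blue and HFC in orange, with replicate numbers. COL4A5 with COL4A6 (r = 0.95), COL6A1 with COL6A2 (0.92) and LAMB1 with LAMC1 (0.91) lie along a line, COL1A1 with COL1A2 (0.50) and LAMA4 with LAMC1 (0.33) scatter, and HFC replicate 3 lies far from the rest for COL1A1 with COL1A2.

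A further 25 collagen, laminin and fibrillin genes were named only through their Ensembl identifiers and stood outside the 43. Of these, 16 passed the filter, 15 had a log2 fold change above 0, and the median was 0.26, which was 0.12 without HFC replicate 1 and 0.01 with the span slope as covariate. None reached a raw p of 0.05 or less. COL11A1, a fibrillar chain, had 0.24 ± 0.24, and COL4A3 and COL4A4 had 0.35 ± 0.24 and 0.35 ± 0.27.

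Genes that make, cut, bind or induce the matrix were read from lists. Counts in these and in the marker lists stand beside 7.03% of all genes higher in HFC pigs and 4.41% higher in LFC pigs at a raw p up to 0.05. The median of the matrix genes, 0.28, was above those of all 5 lists, but without HFC replicate 1 it was 0.082, below those of synthesis (0.095), degradation (0.10) and receptors (0.12). With the span slope as covariate it was 0.017, below 4 of the 5, which ran from 0.025 to 0.059. Of 31 tested genes of collagen synthesis and crosslinking, 4 were higher in HFC pigs at a raw p up to 0.05 and 0 in LFC pigs, and the median log2 fold change was 0.11. SERPINH1 was measured at 85.5 to 142 CPM in LFC pigs (median 99.9), against 102 to 153 CPM in HFC pigs (median 136). SERPINH1, the collagen chaperone of the endoplasmic reticulum, lay above the LFC median in all 8 HFC pigs. It had a log2 fold change of 0.29 ± 0.11 (SE; adjusted p = 0.413, quasi-likelihood test of edgeR, Benjamini-Hochberg). P3H1 and P3H3, of the family that adds hydroxyl groups to proline in collagen, had 0.26 ± 0.10 and 0.44 ± 0.15. PLOD3, which modifies lysine in collagen, was the other of the 4. TLL1, a relative of the procollagen protease BMP1, had the highest value, 0.66 ± 0.41, and PCOLCE2, an enhancer of that protease, the lowest, -0.23 ± 0.19, both with a raw p above 0.05.

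Among 17 matrix-degrading enzymes and inhibitors the median was 0.10 and only MMP14, a membrane-bound collagenase, reached a raw p of 0.05 or less, with 0.35 ± 0.15. MMP2, a gelatinase that MMP14 activates, had 0.29 ± 0.18. ADAMTS1 and TIMP4 were the ends of the list, at 0.36 ± 0.31 and -0.14 ± 0.15.

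Of 27 matrix receptors, 6 were higher in HFC pigs at a raw p up to 0.05 and 0 in LFC pigs, with a median of 0.12. LFC pigs had 2.28 to 5.20 CPM of ITGA2 with a median of 3.71, and HFC pigs had 4.30 to 8.81 CPM with a median of 6.05. ITGA2, the alpha chain of a collagen-binding integrin, was above the LFC median in all 8 HFC pigs. It had a log2 fold change of 0.76 ± 0.21 (SE; adjusted p = 0.385, edgeR, Benjamini-Hochberg). The laminin receptors ITGA3 and BCAM, the second of which binds LAMA5 chains, had 0.43 ± 0.18 and 0.35 ± 0.14. SDC2, a syndecan, was the lowest at -0.20 ± 0.12, with a raw p above 0.05.

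In the list of TGF-beta and other matrix-inducing signals, 23 genes were tested, 2 were higher in the HFC and 1 in LFC pigs at a raw p up to 0.05, and the median was 0.08. LTBP3, which stores latent TGF-beta in the matrix, had 0.43 ± 0.18, SKI, a repressor of TGF-beta signalling, had 0.28 ± 0.12, and PDGFD, a ligand of the PDGF receptor beta, had -0.52 ± 0.24. The 33 other matrix proteins had 4 genes higher in the HFC and 1 in LFC pigs and a median of 0.12, which was -0.02 without HFC replicate 1. FREM1 and FRAS1, which form a complex at epithelial basement membranes, had 0.67 ± 0.21 and 0.61 ± 0.25. THBS4, a thrombospondin, had 1.36 ± 0.54 with HFC values of 0.544 to 12.3 CPM. MGP, an inhibitor of calcification, had -0.66 ± 0.29, with its lowest value in HFC replicate 3, 11.5 CPM.

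The marker lists of cell types gave these values beside them. Of 13 endothelial markers 3 were higher in HFC pigs at a raw p up to 0.05, and the median log2 fold change was 0.16, with VWF at 0.78 ± 0.28, PLVAP at 0.16 ± 0.16 and PECAM1 at 0.06 ± 0.15. In this list 3 of the 13 lay below 0, the lowest at -0.14, and VWF was the highest. Of 10 pericyte and smooth muscle markers NOTCH3 alone was higher at that p, and the median was 0.21, with RGS5 at 0.10 ± 0.28 and PDGFRB at 0.31 ± 0.31. The values of these 10 ran from -0.26 to 0.65, with 3 below 0. In the 7 fibroblast markers the median was 0.09, and CLEC3B was lower in HFC pigs at a raw p up to 0.05 (-0.35 ± 0.16). The values of these 7 ran from -0.48 to 0.28, with 3 below 0. Without HFC replicate 1 the medians of the endothelial, pericyte and fibroblast lists were 0.10, -0.01 and -0.07. Of 5 hormone genes, whose median was 0.04, PRL was higher in HFC pigs (1.27 ± 0.28) and CGA in LFC pigs (-0.56 ± 0.27) at that p. The medians of 8 glial, 8 macrophage and 3 red blood cell markers were -0.57, -0.19 and -0.97, with CRYAB and ALAS2 higher in LFC pigs at that p. Summed CPM of these 3 lists was 1025 to 6864, 229 to 359 and 278 to 1432 in LFC pigs, against 778 to 4414, 122 to 418 and 63.4 to 1050 among HFC pigs. Cartilage and bone, which lie close to the gland, left little signal: IBSP and SNORC had 3 and 4 counts over all pigs, with 0 in 13 and 12 of the 16, and MATN1 had 10. CHAD and ALPL, the markers that passed the filter, had 0.19 ± 0.37 and 0.17 ± 0.35. None of the genes in these lists had an adjusted p of at most 0.05 in the quasi-likelihood test of edgeR with Benjamini-Hochberg adjustment.

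**Figure D5:**
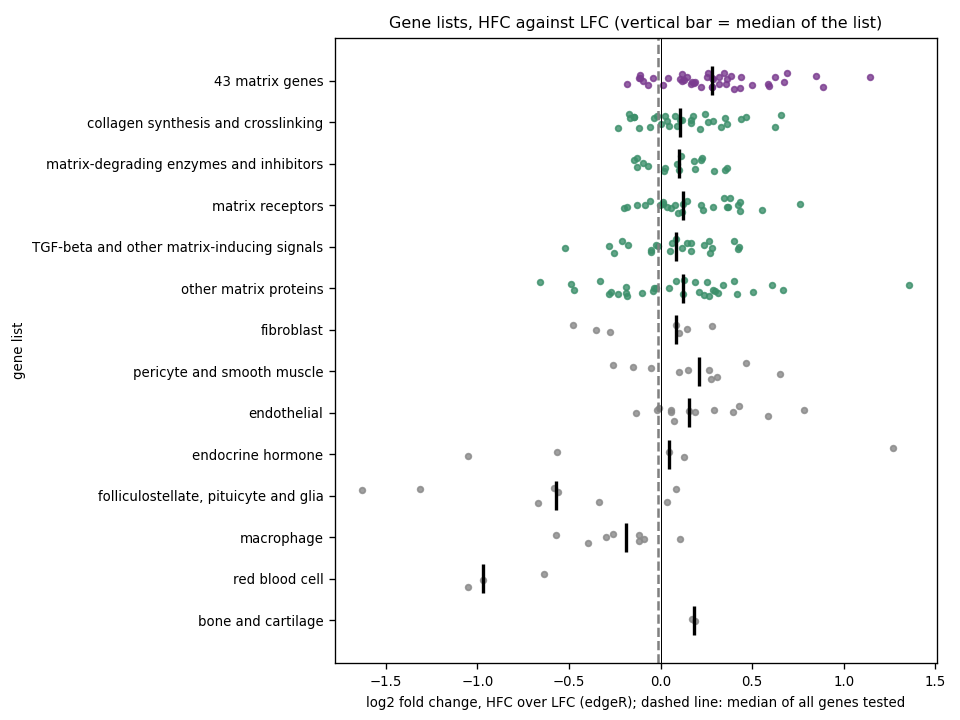
Log2 fold changes (x axis, HFC over LFC) of the tested genes of each list (y axis), with vertical bars for list medians and a dashed line for the median of all genes tested. The median of the 43 matrix genes, 0.28, lies to the right of the 5 lists of genes that make, cut, bind or induce the matrix, whose medians run from 0.08 to 0.12, an order that did not hold without HFC replicate 1 or with the span slope as covariate.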

How the data were processed

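Whole pituitaries of 16 gilts were sequenced, 8 labelled low and 8 labelled high for feed conversion. After read cleaning, the authors used STAR and RSEM on the Sscrofa11.1 assembly and deposited whole-number counts per Ensembl gene and pig, without normalization. How the whole numbers were made is not given in the sources used here. From the authors' deposited comparison, which also holds fold changes and p-values that were not used, the symbols and positions of 10892 genes were taken. Of the 43 members, 9 overlap another reference gene by at least 1000 bases. They are COL14A1, BGN, SPARC, LAMB1, COL5A2, COL4A2, COL8A1, LAMC3 and POSTN. Without strand, reads of the overlapping genes may have been counted for them.

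Counts were tested with edgeR 4.0.16 in R 4.3.3 (TMM, expression filter by group, 13621 genes, quasi-likelihood F test, Benjamini-Hochberg adjustment over all genes), without covariates. The SE is the log2 fold change over the square root of F. The limits for a call were 0.05 for the adjusted p and 1.3 for the fold. Correlations used log2(CPM + 1) and two-sided permutation tests with 100000 resamples, adjusted over 12 pairs, exact within groups. The fit was tested on simulated data. The alternatives were DESeq2 1.42.0, limma 3.58.1 (voom with quality weights), other scalings and filters, robust estimation, a replicate block, 1 surrogate variable (sva 3.50.0), the span slope, a pseudocount of 0.1 and fits without 1 pig.

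The members, gene lists and tests were chosen with earlier results of these data known. By rule, the named members were those with a raw p up to 0.05, the 3 highest in mean CPM, the 3 with the most negative log2 fold change and a core list. In each other list the rule named the 3 leading genes (by p, or by CPM for markers) and the extremes. Some of the markers so named are not given singly above. All other names were added by class or after their values were seen. List genes were named by deposited symbol (9550 genes) or an identifier table (5875 genes). Replicate numbers came from the labels. The labels describe the samples as separate pigs and say no more on replication, so p-values measure the spread between these samples. For 1 of the 43 members no values are reported here, and it stays in the counts and medians.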

Additional observations from a re-analysis of the deposited data

Results flagged for a closer look

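Dixon's gap test at the 95% level was run for the 43 matrix genes in each group of 8 pigs, which made 86 groups. It marked 1 of them, while chance marks about 1 in 20. ELN, elastin, had 7.88 CPM in LFC replicate 6, and the next LFC pig had 15.1 CPM. The gap was 0.604 of the range of the group. LFC replicate 6 was the lowest pig in 15 of the 43 genes.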

How the results depend on the processing

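DESeq2 called 29 genes and 1 matrix gene, COL1A2, where edgeR called 0 of both and had 1559 genes, 7 of them matrix genes, at a raw p up to 0.05. With 1 surrogate variable, 1 matrix gene was higher in HFC pigs and 1 in LFC pigs at that p, and the median log2 fold change of the matrix genes turned to -0.060. Over all 13621 genes, 351 were then higher in HFC pigs and 274 in LFC pigs. With the span slope as covariate, 2 matrix genes were higher in HFC pigs at that p, as were 2.73% of all genes. Leaving out each pig in turn gave 4 (without HFC replicate 1) to 10 matrix genes higher in HFC pigs and medians of 0.08 to 0.36. Over all genes, 666 of 13674 were higher in HFC pigs at that p without HFC replicate 1. In the fits with 10 matrix genes, the count over all genes ran from 734 of 13715 without HFC replicate 3 to 1894 of 13697 without HFC replicate 5. The cause was not tested. Under the scalings and filters tried the median stayed between 0.27 and 0.30, with 6 to 8 matrix genes higher in HFC pigs. Over all genes that count ran from 639 of 13621 with total library size to 1095 of 13667 with the filter of 10 counts in 8 pigs. Without a filter it was 1085 of 18963. Among all genes at a raw p up to 0.05, 61.4% were higher in HFC pigs, against 46.0% with total library size, while the matrix genes were then 6 and 0. With a replicate block, 8 matrix genes were higher in HFC pigs, 0 in LFC pigs and 0 were called, with a median of 0.24. Over all 13621 genes, 907 were then higher in HFC pigs and 497 in LFC pigs at a raw p up to 0.05. Deviations of pigs with the same number correlated at -0.34 to 0.37 and 1 pig correlated best with its own number, so the numbers were not taken to pair pigs. The common biological coefficient of variation between pigs, estimated over all genes tested, was 0.249. The matrix genes varied more within groups, with a median SD of log2(CPM + 1) of 0.53, against 0.28 for all genes. How far this spread limits what 8 pigs per group can show was not tested. None of the genes below had an adjusted p of at most 0.05 in edgeR. With 1 surrogate variable, the log2 fold change had the opposite sign at -0.090 for COL3A1, -0.10 for COL1A1, -0.14 for COL4A2, -0.075 for COL6A1, -0.060 for COL6A2, -0.072 for BGN, -0.076 for FBN1, -0.11 for ELN, -0.016 for MMP2, -0.043 for PDGFRB, -0.16 for GH1, -0.067 for ALDH1A1, -0.19 for CSF1R, -0.18 for ALPL, -0.14 for NID2, -0.24 for COL15A1, -0.091 for LAMC3, -0.067 for FBLN2, -0.062 for COL4A5, -0.10 for COL5A3, -0.13 for COL18A1, -0.19 for COL4A4 and -0.19 for COL4A6. With the span slope as covariate, the log2 fold change had the opposite sign at -0.085 for COL3A1, -0.057 for COL1A1, -0.059 for COL4A2, -0.0093 for COL6A1, -0.041 for COL6A2, -0.046 for BGN, -0.023 for FBN1, -0.083 for ELN, -0.015 for PDGFRB, -0.14 for GH1, -0.072 for ALDH1A1, -0.10 for CSF1R, -0.087 for ALPL, -0.075 for NID2, -0.22 for COL15A1, -0.072 for LAMC3, -0.014 for COL4A5, -0.040 for COL5A3, -0.070 for COL18A1, -0.10 for COL4A4 and -0.077 for COL4A6. With limma voom with quality weights, the log2 fold change had the opposite sign at -0.017 for COL3A1, 0.11 for POSTN, -0.053 for ELN, -0.13 for VIM, -0.39 for PDGFRA, -0.055 for RGS5, -0.12 for CSF1R, -0.0013 for ALPL, -0.036 for NID2, 0.0011 for FBLN7, -0.11 for COL8A1 and -0.032 for COL5A3. With the replicate block, the log2 fold change had the opposite sign at -0.0057 for COL3A1, 0.066 for POSTN, -0.12 for VIM, -0.030 for RGS5, -0.031 for GH1, -0.037 for CSF1R and -0.048 for COL8A1. Leaving out each pig in turn took the log2 fold change across 0, at -0.33 to 0.059 for SPARC, -0.14 to 0.32 for COL3A1, -0.23 to 0.27 for POSTN, -0.037 to 0.42 for COL6A2, -0.27 to 0.13 for LUM, -0.079 to 0.10 for ELN, -0.058 to 0.25 for VIM, -0.0081 to 0.36 for THY1, -0.067 to 0.49 for PDGFRA, -0.037 to 0.25 for RGS5, -0.0089 to 0.45 for PDGFRB, -0.00027 to 0.16 for PECAM1, -0.10 to 0.15 for GH1, -0.017 to 0.11 for ALDH1A1, -0.24 to 0.014 for C1QC, -0.17 to 0.23 for CSF1R, -0.044 to 0.35 for ALPL, -0.37 to 0.046 for LAMA3, -0.024 to 0.29 for LAMA4, -0.030 to 0.34 for NID2, -0.17 to 0.34 for COL15A1, -0.028 to 0.46 for LAMC3, -0.088 to 0.051 for FBLN7, -0.10 to 0.18 for COL8A1, -0.048 to 0.34 for COL5A3 and -0.0028 to 0.25 for LAMB3.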
